A study of Mus musculus with 3 samples.

Results

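Natural killer (NK) cells were the 157 cells that remained in splenic B cell preparations and carried NK marker RNA, out of 35102 cells kept from 40130 barcodes in 3 single-cell 5' RNA libraries (sets 1 to 3). A cell was kept with at least 500 genes detected, under 10% mitochondrial UMIs (unique molecular identifiers, each counting 1 captured RNA molecule) and 1 hashtag antibody at 64 UMIs or more and at least 4-fold the other plus 1. It was called an NK cell when it had a UMI of at least 3 of the 6 genes Ncr1, Klrb1c, Nkg7, Gzma, Prf1 and Klre1 and no UMI of Cd3e, a subunit of the T cell receptor complex. These values chose the cells, so the levels of the 6 genes are described below without a test. Of the kept cells without Cd3e, 10 had exactly 3 of the markers, 28 had 4, 43 had 5 and 76 had all 6. The 10 cells just below the threshold, with 2 markers, had a median of 5945 UMIs and 8 of them carried at least 3 of 6 B cell genes, whereas none of the 10 cells just above it did. A further 4 cells met the marker rule but carried Cd3e, and 19 barcodes with 3 markers carried both hashtags and had been removed.

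The cells came from female wild-type BXD2 mice, an inbred line prone to spontaneous lupus, with 3 mice per treatment and no age given. The IL-4+R848 mice were injected intraperitoneally with a complex of 5 µg IL-4 and 25 µg anti-IL-4 antibody (clone BVD4-1D11), in which the antibody prolongs the life of the cytokine. The R848 mice were given 25 µg of the antibody alone, so the control group also carried anti-IL-4. After 2 h every mouse received R848, an agonist of Toll-like receptor 7, at 40 µg per 20 g body weight. The treatment was repeated 2 days later and spleens were taken after 2 more days, when B cells were isolated by negative selection. Each library held cells of both treatments, told apart by the hashtag, and the labels tie no mouse to a set. The p-values below therefore measure the spread between these libraries, which may be technical.

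NK cells are innate lymphocytes that kill stressed or infected cells with perforin and granzymes and that secrete interferon gamma and chemokines. In the mouse they pass from an early state with CD27, TCF-1 and Xcl1 to a later state with CD11b, KLRG1 and more granule protein. IL-4 is read through IL-4 receptor alpha paired with the common gamma chain, which signals to STAT6, and it can act on NK cells as well as on B cells. R848 can activate NK cells through cytokines of dendritic cells. No UMI of Tlr7, its receptor, was seen in the NK cells (0 of 157, which allows a share of up to 1.91% of cells with a UMI).

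The label was checked against markers that the rule did not use. Among the 20 genes with the highest mean level in NK cells over IgD B cells were Xcl1, the killer lectin-like receptors Klrc1, Klrc2, Klri2, Klra4, Klra8 and Klrb1b, and Ccl5, which stood at a mean of 15801 CPM (counts per 1e6 gene UMIs of the sum, with the total scaled by edgeR's TMM factor) in NK cells and 0.855 CPM in IgD B cells. IgD B cells were the 19281 cells with a UMI of Ighd, at least 3 of 6 B cell genes and none of the NK markers. The 20 genes also held the 6 markers of the rule, which IgD B cells were required to lack. The rest were Ctla2b, Ifitm10, Klra6, Klra9, Tnni1 and the T cell receptor gamma gene Tcrg-C4, which was in 54 NK cells. The counts of the rule's own 6 markers follow from the selection and are no check of the label. Nkg7 was seen in 157 cells, Ncr1, which encodes the activating receptor NKp46, in 152, Klre1 in 138, Gzma in 133, Prf1 in 117 and Klrb1c in 116. Of 18 T cell markers 13 had a UMI in some NK cell, and several were frequent: Cd2 was in 116 cells, Lat in 104, Cd247 in 103, Trbc1 in 84, Cd28 in 77, Trbc2 in 70, Cd3g in 55, Cd3d in 46, Trdc in 25, Lef1 in 21 and Trac in 19. Cd8b1 and Bcl11b were each in 1 cell, and Cd4, Cd8a, Cd5 and Cd6 were at 0, as Cd3e was by the rule. Neutrophil markers (2 of 11) and erythroid or platelet markers (1 of 12) were nearly absent. Monocyte markers were detected for 13 of 15 genes, with Ccr2 in 81 cells, Cd68 in 32 and the others in at most 8. All 13 type 1 innate lymphoid markers, many shared with NK cells, were detected. Ly6e was in 156 cells and the others in 5 to 55. Of 12 markers of the other innate lymphoid cells, 4 had a UMI, with Gata3 in 52 cells, Rora in 30 (2 R848 and 28 IL-4+R848), Kit in 24 and Ccr6 in 5, and the rest, Il1rl1 among them, were at 0. NK cells and type 1 innate lymphoid cells are not told apart by these markers. RNA of B cells was also present: 8 NK cells (1 R848 and 7 IL-4+R848) carried at least 3 of 6 B cell genes and are called B cell doublet candidates below.

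NK cells made up a larger share of the kept cells with IL-4+R848 than with R848 alone in every set. There were 21, 7 and 16 NK cells with R848 and 37, 19 and 57 with IL-4+R848 in sets 1, 2 and 3. The shares were 0.294%, 0.124% and 0.212% with R848 and 0.722%, 0.415% and 1.12% with IL-4+R848, and the groups did not overlap. The exact 95% binomial interval of the lowest share, R848 in set 2, ran from 0.0499% to 0.256%, and that of the lowest IL-4+R848 share, in set 2, from 0.250% to 0.647%, so these intervals overlapped, as the latter did with that of R848 set 1, which reached 0.449%. Such intervals cover counting error only. The mean share was 0.210% ± 0.0849 (SD, n = 3) with R848 and 0.753% ± 0.354 (SD, n = 3) with IL-4+R848, and the within-set ratios were 2.46, 3.34 and 5.28. An exact two-sided permutation test gave p = 0.10, the smallest value that 3 sets against 3 can give. T cells numbered 6, 0 and 27 with R848 and 2 in each set with IL-4+R848, and their shares overlapped between treatments (exact permutation p = 0.40). Monocyte-like cells made up 0.280%, 0.230% and 0.266% of kept cells with R848 and 0.195%, 0.109% and 0.276% with IL-4+R848, which also overlapped (exact permutation p = 0.30). These shares are what negative selection left behind, and how completely it removed NK cells from each spleen was not tested.

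**Figure D1:**
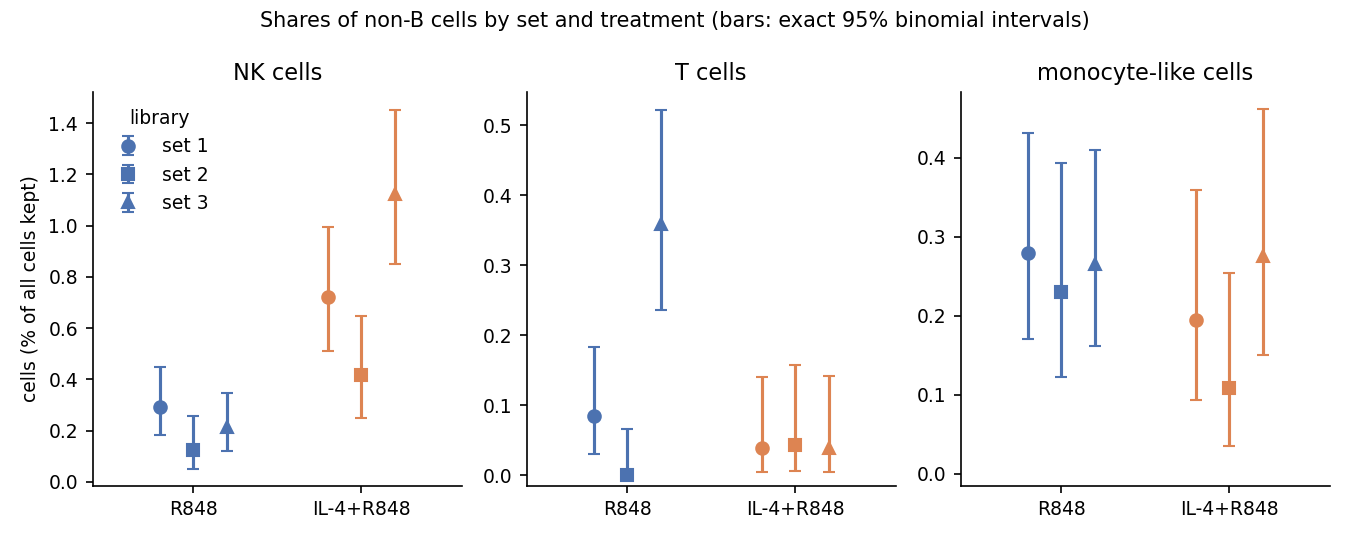
NK cells, T cells and monocyte-like cells as a percentage of all kept cells, per set and treatment. Bars are exact 95% binomial intervals. The NK share was 0.294%, 0.124% and 0.212% with R848 and 0.722%, 0.415% and 1.12% with IL-4+R848.

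Summed per set and treatment, the NK cells gave 152897, 36440 and 123185 gene UMIs with R848 and 306121, 207954 and 490349 with IL-4+R848, with a median of 7170 UMIs per cell (1209 to 23769). R848 set 2, with 7 cells, was the thinnest sum. Levels below are CPM of these sums with each total scaled by its TMM factor, and a change is the log2 fold change of IL-4+R848 against R848 with its standard error, from edgeR's quasi-likelihood test with Benjamini-Hochberg adjustment. Outside the marker rule, 2890 genes were tested and 57 (1.97%) had an adjusted p under 0.05, of which 22 (0.761%) rose and 35 (1.21%) fell. At an unadjusted p under 0.05 there were 397. These shares, and a median log2 change of 0.00 over all tested genes, are the background for the counts per gene list below. All 57 moved the same way in the 3 sets, and in 56 the treatments did not overlap, against 20.9% of all tested genes. The 57 were chosen by a test on these same sums. Their shared direction and lack of overlap follow largely from that choice and add no support. The count varied with the sets included: it was 17 without set 1, 55 without set 2 and 34 without set 3, and in each of these fits the called genes that could be tested kept their direction. Of the 44 called genes that the naming rule chose, 29 lost their call without set 1, 9 without set 2, 34 without set 3 and 17 with the set as a block (a term that compares treatments within each set); the block's adjusted p is given wherever the call was lost. Cd3d was seen in 18 of 44 R848 cells and 28 of 113 IL-4+R848 cells. When every cell with a UMI of Cd3d, Cd3g or Trac was left out (19 R848 and 64 IL-4+R848 cells remained), 42 of the 57 genes could be tested, all 42 kept their direction and 2 were called, Hopx and Ms4a4b.

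Of the granule genes, Gzma and Gzmb were higher with IL-4+R848 and Prf1 was not. Gzma, which encodes the serine protease granzyme A (13:113093825-113100981, minus strand, mm10), stood at 8691, 2352 and 1950.3 CPM with R848 and at 25249, 33510.0 and 34090.1 CPM with IL-4+R848. Every IL-4+R848 sum lay above every R848 sum. Gzma is one of the marker genes, so no test is attached to these values. With cells chosen by at least 3 of the 5 other markers (44 and 111 cells), its log2 change was 2.80 ± 0.42 in the edgeR fit. That rule was added after the data were seen and keeps nearly the same cells, so this value is also a description.

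Cell by cell, a UMI of Gzma was present in 20 of 44 R848 cells and in 113 of 113 IL-4+R848 cells. With each cell thinned to 2000 UMIs these were 17 of 43 and 111 of 111, and the 19281 IgD B cells, which were required to lack it, had none. The transcript made up a median of 0% of a cell's UMIs with R848 (highest 2.72%) and 2.42% with IL-4+R848 (from 0.0284% to 5.62%). At least 1% of UMIs were Gzma in 11 R848 cells and 99 IL-4+R848 cells.

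Gzmb, the gene of granzyme B, rose. It was at 193, 161 and 56.0 CPM with R848 and at 329.6, 431 and 570.4 CPM with IL-4+R848, with no overlap. Its log2 change was 1.74 ± 0.36, with an adjusted p of 0.0236 by edgeR's quasi-likelihood test and 0.103 with the set as a block. Perforin RNA, a marker of the rule, did not follow: Prf1 was at 463, 354 and 336 CPM with R848 and 271, 398 and 408 CPM with IL-4+R848, and the groups overlapped. Of 10 tested genes of the list of cytotoxic granule and death ligand genes, Gzmb was the 1 that rose and none fell. Over all tested genes 0.761% rose and 1.21% fell. The list median was 0.07 beside 0.00 over all tested genes.

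**Figure D2:**
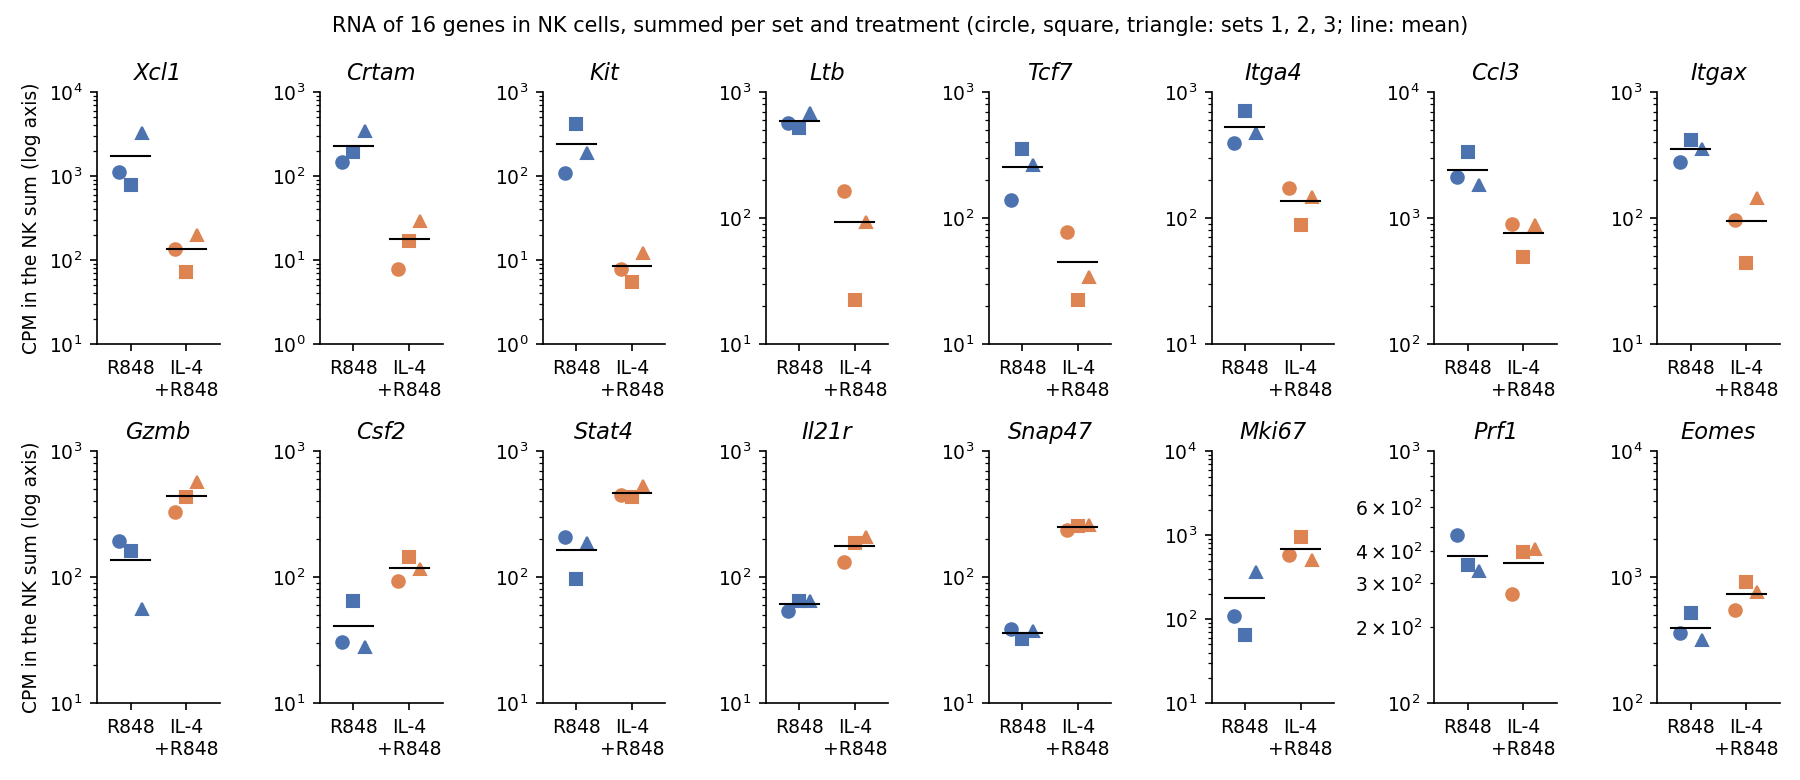
CPM of 16 genes in the NK sums, 1 point per set and treatment with the mean as a line, on log axes. Xcl1, Kit, Crtam, Ltb and Itgax were lower, and Snap47, Gzmb and Stat4 higher, in all 3 IL-4+R848 sums than in any R848 sum.

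The secreted products changed in different directions. Xcl1 (1:164931644-164935527, minus strand, mm10), the chemokine that draws cross-presenting dendritic cells, was at 1127, 773 and 3285 CPM with R848. With IL-4+R848 it was at 136, 71.9 and 197 CPM, below every R848 sum. Its log2 change was -3.66 ± 0.46, with an adjusted p of 0.00326 by edgeR's quasi-likelihood test. In R848 set 3, 1 cell held 226 Xcl1 UMIs, while the next highest R848 cell of any set held 30. The 3285 CPM of that sum, and part of the size of the change, rest on this cell. A UMI of Xcl1 was present in 37 of 44 R848 cells and 35 of 113 IL-4+R848 cells, or 72.1% and 12.6% of cells thinned to 2000 UMIs, while 2 UMIs were found over all IgD B cells.

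Ccl3, an inflammatory chemokine, also fell, from 2099, 3352 and 1819.7 CPM to 899.7, 487 and 879 CPM (log2 change -1.61 ± 0.26, adjusted p = 0.00774 in edgeR's quasi-likelihood test). Ccl4 (log2 -0.43, adjusted p = 0.407) and Ccl5 (-0.30, adjusted p = 0.641), chemokines of the same cluster, did not pass this edgeR test. Csf2, encoding the growth factor GM-CSF, rose from 30.9, 64.5 and 28.0 CPM to 93.1, 144 and 117 CPM. Its log2 change was 1.76 ± 0.42, with an edgeR adjusted p of 0.0485, and of 0.123 with the set as a block. Ifng was at 224, 96.7 and 168 CPM with R848 and 202, 398 and 252 CPM with IL-4+R848, overlapping groups with an edgeR adjusted p of 0.446. In the list of 13 NK cytokine and chemokine genes, 7 were tested, 1 rose and 3 fell, with a median log2 change of -0.43. Over all tested genes 0.761% rose and 1.21% fell. The third gene of this list that fell was Ltb, described with the early NK genes.

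The promoters of 3 called genes that hold the AP-1 motif TGACTCA are shown with that of Xcl1, which holds none of the motifs searched. Anxa2, Slamf7 and Art2b also hold TGACTCA and are not shown. Each is the 250 bases before the RefSeq start of the gene on GRCm38.p6, written 5' to 3' on the gene's strand, with motif matches in capitals.
Itgax (7:128129300-128129549, plus strand): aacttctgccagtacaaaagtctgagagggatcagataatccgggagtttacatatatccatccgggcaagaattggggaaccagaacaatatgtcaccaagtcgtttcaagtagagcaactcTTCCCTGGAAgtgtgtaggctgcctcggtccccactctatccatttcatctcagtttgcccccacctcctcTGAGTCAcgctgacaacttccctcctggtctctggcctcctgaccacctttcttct
S100a11 (3:93520246-93520495, plus strand): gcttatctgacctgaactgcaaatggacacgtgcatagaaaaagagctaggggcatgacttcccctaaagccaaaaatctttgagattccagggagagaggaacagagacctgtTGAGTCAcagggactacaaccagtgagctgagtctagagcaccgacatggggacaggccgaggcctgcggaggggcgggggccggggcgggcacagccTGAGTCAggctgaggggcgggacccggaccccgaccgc
Gzmb (14:56262335-56262584, minus strand): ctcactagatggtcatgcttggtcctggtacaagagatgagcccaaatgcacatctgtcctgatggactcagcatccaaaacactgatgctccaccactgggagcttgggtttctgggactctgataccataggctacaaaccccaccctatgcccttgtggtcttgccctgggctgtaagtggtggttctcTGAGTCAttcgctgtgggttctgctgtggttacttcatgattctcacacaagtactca
Xcl1 (1:164935523-164935772, minus strand): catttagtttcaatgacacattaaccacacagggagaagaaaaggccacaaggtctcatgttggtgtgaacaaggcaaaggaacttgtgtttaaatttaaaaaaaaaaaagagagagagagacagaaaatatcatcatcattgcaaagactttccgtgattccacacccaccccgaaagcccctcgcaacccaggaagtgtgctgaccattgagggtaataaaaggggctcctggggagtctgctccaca
In Itgax the capitals mark TTC and GAA parted by 4 bases, the spacing preferred by STAT6, beginning 127 bases before the start, and TGACTCA on the reverse strand beginning 56 bases before it, which do not overlap. In S100a11 TGACTCA lies at 136 and 38 bases before the start, and in Gzmb at 58. Searched on both strands, TGACTCA was in 4 of 31 promoters of genes that fell (12.9%) and in 2 of 20 of genes that rose (10%), beside 2.80% of 2323 promoters of tested genes and 4.43% of 27025 mouse promoters. The STAT6 spacing was in 1 of 31, 0 of 20, 4.22% and 5.86% of the same sets. TTCNNNGAA, the spacing of STAT5 and other STATs, was in 1 of 31 and 0 of 20 (5.81% of tested genes), and the T-box motif AGGTGTGA in 0 of both (0.517% of tested genes). These are matches of letters in a short window, not sites shown to be bound. The shares rest on few promoters, and neither their differences nor a role of AP-1 was tested.

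Of 13 listed genes of early NK cells 11 were tested and 6 of them fell, beside 1.21% of all tested genes. All 11 had a negative log2 change, with a list median of -1.66. Kit (5:75574916-75656722, plus strand, mm10), the receptor of stem cell factor, was at 108, 419 and 187 CPM with R848 and 7.76, 5.53 and 12.1 CPM with IL-4+R848. Every R848 sum was above every IL-4+R848 sum. Its log2 change was -4.21 ± 0.58 (adjusted p = 0.00404, edgeR's quasi-likelihood test), and it had a UMI in 17 of 44 and 7 of 113 cells.

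Ltb, which encodes the membrane-bound ligand lymphotoxin beta, fell from 571, 516 and 681 CPM to 163, 22.1 and 92.2 CPM (log2 change -2.63 ± 0.38, edgeR adjusted p = 0.00462). It was lower in each IL-4+R848 sum than in any R848 sum. Tcf7, encoding the transcription factor TCF-1, was at 139, 354 and 261 CPM with R848 and 77.6, 22.1 and 34.0 CPM with IL-4+R848. Its log2 change of -2.27 ± 0.43 had an edgeR adjusted p of 0.0167, and of 0.0587 with the set as a block. Cd160, described with the receptors, and Xcl1 are also on the list and fell. Cd27, a member of the tumour necrosis factor receptor family and the textbook mark of early NK cells, was at 139, 226 and 187 CPM and 124, 188 and 150.5 CPM, which overlap (log2 -0.17, edgeR adjusted p = 0.885). Il7r had 23 UMIs in each group, in 10 of 44 R848 cells and 12 of 113 IL-4+R848 cells, and was too low to test. The R848 sums held 312522 gene UMIs in all and the IL-4+R848 sums 1004424, so these equal counts are a higher level with R848.

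Late NK genes gave no common direction among called genes. Of 10 tested genes, Gzmb rose and Anxa2 fell, beside 0.761% and 1.21% of all tested genes. The list median log2 change was -0.58. Anxa2, encoding the membrane-binding protein annexin A2, was at 756, 741 and 625 CPM with R848 and 105, 55.3 and 226 CPM with IL-4+R848 (log2 -2.32 ± 0.35, edgeR adjusted p = 0.00566). Klrg1, an inhibitory receptor of late NK cells, was at 162, 64.5 and 103 CPM and 58.2, 22.1 and 68.0 CPM (log2 -1.20 ± 0.41, edgeR adjusted p = 0.180). Itgam, Cx3cr1 and S1pr5 were too low to test. Summed over the early list, levels per 1e6 gene UMIs, here without the TMM factors, were 9352 ± 1881 CPM (SD, n = 3) with R848 and 5962 ± 39.9 CPM (SD, n = 3) with IL-4+R848. On the same scale the late list summed to 3292 ± 442 CPM and 2224 ± 430 CPM (SD, n = 3 each), so both lists had a lower mean.

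Among 26 tested NK cell receptor genes 5 fell and none rose, with a median of -0.67. Crtam, an adhesion receptor of activated NK and CD8 T cells, was at 147, 193 and 345 CPM with R848 and at 7.76, 16.6 and 29.1 CPM with IL-4+R848, which was the widest gap among them. Its log2 change was -3.51 ± 0.46, with an adjusted p of 0.00345 by edgeR's quasi-likelihood test. Cd160, a receptor of class I MHC and HVEM, fell from 702, 773 and 896 CPM to 407, 254 and 337 CPM (-1.23 ± 0.21, edgeR adjusted p = 0.0117).

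Klrk1, encoding the activating receptor NKG2D, fell from 710.1, 677 and 793 CPM to 407, 332 and 405 CPM. The log2 change of -0.93 ± 0.18 had an edgeR adjusted p of 0.0176, and of 0.0626 with the set as a block. Slamf7, a self-binding receptor of the SLAM family, fell by 1.13 on the log2 scale (edgeR adjusted p = 0.0475, with the block 0.161), and kept its call in 5 of 14 alternative fits. The fifth was Klri2, a lectin-like receptor named only because it completes the count, at -0.99 (edgeR adjusted p = 0.0447, with the block 0.161). The lectin-like receptor genes Klrd1 (log2 -0.71, edgeR adjusted p = 0.124) and Klrc1 (-0.81, 0.170) did not pass. Ncr1 itself, a marker of the rule, averaged 1900.3 ± 371 CPM with R848 and 1414 ± 114 CPM with IL-4+R848 (SD, n = 3 each), without a test.

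Of 11 tested trafficking and adhesion genes 3 fell, beside 1.21% of all tested genes, and none rose. Itga4, the alpha 4 integrin chain, was at 394, 709 and 476 CPM with R848 and 175, 88.5 and 146 CPM with IL-4+R848 (log2 -1.79 ± 0.28, edgeR adjusted p = 0.00687). Ccr2, the receptor of monocyte chemoattractant proteins, fell by 1.24 on the log2 scale (edgeR adjusted p = 0.0447, with the block 0.145).

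Itgax, which encodes the integrin CD11c, was at 278, 419 and 355 CPM with R848 and at 96.9, 44.2 and 143 CPM with IL-4+R848. The groups did not overlap, and the log2 change was -1.69 ± 0.33 (edgeR adjusted p = 0.0176). A UMI was present in 34 of 44 and 40 of 113 cells, or 48.8% and 9.91% after thinning. Itgax stands on the list of dendritic cell markers, of which 6 of 12 had a UMI in any NK cell, and the surface protein is reported with the antibody tags.

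Of 9 tested cytokine receptor genes 1 rose and 2 fell, beside 0.761% and 1.21% of all tested genes. Il21r, the receptor of IL-21, rose from 54.0, 64.5 and 65.3 CPM to 132, 188 and 209 CPM, each above the R848 sums. The log2 change was 1.56 ± 0.34 (edgeR adjusted p = 0.0376, with the block 0.0783). Il2rg, encoding the common gamma chain that IL-4, IL-15 and IL-21 receptors share, fell from 725, 935 and 868 CPM to 461, 426 and 517 CPM (-0.81 ± 0.18, edgeR adjusted p = 0.0436, with the block 0.104). Il10ra, a chain of the IL-10 receptor, fell by 1.35 on the log2 scale (edgeR adjusted p = 0.0176, with the block 0.0587). Il2rb, the chain shared by the IL-2 and IL-15 receptors, was near 1694 ± 264 CPM and 1959.7 ± 310.3 CPM (SD, n = 3 each; edgeR adjusted p = 0.648).

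Of 27 listed IL-4 and STAT6 response genes 8 were tested and none passed, beside 1.97% of all tested genes. A count of 0 among so few says little. Their median log2 change was 0.26, and 6 of the 8 were positive. Il4ra was at 61.7, 64.5 and 9.33 CPM with R848 and 65.9, 133 and 87.4 CPM with IL-4+R848 (1.14 ± 0.53, edgeR adjusted p = 0.360), and Stat6 differed by 0.36 (adjusted p = 0.842). Socs1, a feedback inhibitor of cytokine receptors, was at -0.38 (adjusted p = 0.674). Il4i1, a secreted amino acid oxidase, had no UMI with R848 and 22 with IL-4+R848, at least 2.28-fold higher when R848 is set to the floor of 3 counts over the group. Stat4, which transmits IL-12 signals, was the 1 of 11 tested JAK and STAT genes to pass, beside 1.97% of all tested genes. It was at 208, 96.7 and 187 CPM with R848 and 446, 437 and 527 CPM with IL-4+R848 (log2 1.37 ± 0.24, edgeR adjusted p = 0.0119), with no overlap. None of 8 tested type I interferon genes or 10 tested interferon gamma genes passed, which are also too few for such a count to say much.

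Of 11 tested transcription factor genes of NK cells, Tcf7 alone passed, beside 1.97% of all tested genes. Eomes, the T-box factor that conventional NK cells need, was at 363, 516 and 317 CPM with R848 and 551, 913 and 757 CPM with IL-4+R848. These do not overlap, but the log2 change of 0.98 ± 0.25 had an edgeR adjusted p of 0.0598. Tbx21, its relative T-bet, was at -0.43 (edgeR adjusted p = 0.549). Nfil3, a factor needed for NK cell development, was at 224, 96.7 and 46.7 CPM and 240.4, 442 and 303 CPM (1.26 ± 0.41, edgeR adjusted p = 0.170).

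Of 17 tested immediate-early genes 5 fell, beside 1.21% of all tested genes, and none rose. Junb, a subunit of AP-1, was at 2339, 2159 and 1558 CPM with R848 and 1047, 1167 and 786 CPM with IL-4+R848 (log2 -1.01 ± 0.20, edgeR adjusted p = 0.0176). Fos, another subunit, fell by 1.12 and Nr4a1, an orphan nuclear receptor induced by antigen receptors, by 1.57 on the log2 scale (edgeR adjusted p = 0.0176 and 0.00794). Jun (-0.96, adjusted p = 0.0399, with the block 0.113) and Dusp1 (-0.99, adjusted p = 0.0176, with the block 0.0649), a phosphatase of MAP kinases, are named beyond the rule to complete the count. The IgD B cells of the same sets had log2 changes of -1.16 for Junb, -1.17 for Fos and -1.68 for Nr4a1. None of the 17 genes was called in the test of the difference between the cell groups, beside 3.88% of all tested genes. These genes are also induced when tissue is handled, which was not tested.

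The 10 largest falls outside the lists were in genes of varied function. Id3, an inhibitor of E proteins, was at 116, 129 and 65.3 CPM with R848 and 19.4, 5.53 and 4.85 CPM with IL-4+R848 (log2 -3.27 ± 0.63, edgeR adjusted p = 0.0176). Hopx, a homeodomain protein of effector lymphocytes, fell from 270.1, 161 and 299 CPM to 85.3, 11.1 and 34.0 CPM (-2.55 ± 0.42, edgeR adjusted p = 0.00954). Ms4a4b, a membrane protein of T and NK cells, fell from 1520.5, 1676 and 2081 CPM to 589, 293 and 634 CPM and kept its call in 14 of 14 alternative fits (-1.78 ± 0.25, edgeR adjusted p = 0.00456).

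S100a11, a calcium-binding protein that partners annexins, fell by 1.83 and Vim, the intermediate filament vimentin, by 1.82 on the log2 scale (edgeR adjusted p = 0.0139 and 0.0424). Vim was the called gene whose groups overlapped, since R848 set 2 was at 129 CPM and IL-4+R848 set 3 at 136 CPM. The remaining large falls were Clec2i (-2.19), a lectin-like ligand, Plek (-1.73), the protein kinase C substrate pleckstrin, Traf1 (-1.34), an adaptor of tumour necrosis factor receptors, Zfp36l1 (-1.29), a factor that destabilises mRNA, and Hsd11b1 (-1.21), an enzyme that regenerates active glucocorticoid. With the set as a block Plek, Traf1 and Hsd11b1 had adjusted p of 0.0504, 0.0783 and 0.104 in the edgeR fit.

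Among the largest rises outside the lists was that of Snap47, a SNARE-family protein. It was at 38.6, 32.2 and 37.3 CPM with R848 and 237, 254 and 259.7 CPM with IL-4+R848. Each IL-4+R848 sum was far above each R848 sum. Its log2 change was 2.73 ± 0.32, with an adjusted p of 0.00308 in edgeR's quasi-likelihood test. A UMI was in 9 of 44 and 78 of 113 cells, and after thinning in 0 of 43 and 33.3% of 111.

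Tent5c, a poly(A) polymerase that stabilises mRNA of secreted proteins, rose from 23.2, 32.2 and 37.3 CPM to 155, 326 and 165 CPM (log2 2.76 ± 0.50, edgeR adjusted p = 0.0144). Metrnl, encoding a secreted meteorin-like cytokine, rose from 116, 32.2 and 46.7 CPM to 264, 376 and 265 CPM (1.94 ± 0.36, edgeR adjusted p = 0.0150). Art2b, an ecto-ADP-ribosyltransferase of lymphocytes, had 4 UMIs with R848, all in 1 cell, and 113 with IL-4+R848, in 57 cells (3.13 ± 0.61, edgeR adjusted p = 0.0176, with the block 0.0552). Fitted changes this large from so few UMIs depend on the prior count that edgeR adds.

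Paqr4 (2.94), Stc2 (2.70), a secreted glycoprotein, Kremen2 (2.68), a receptor of Dickkopf proteins, Xdh (1.74), the purine-degrading enzyme xanthine dehydrogenase, and Oxct1 (1.73), an enzyme of ketone body use, completed the largest rises with Cdc20 (1.66), which activates the anaphase-promoting complex. With the set as a block the edgeR adjusted p of Stc2, Oxct1 and Cdc20 was 0.0626, 0.113 and 0.0631.

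Of 26 tested genes of DNA replication and mitosis 1 rose, Mki67, beside 0.761% of all tested genes. All 26 had a positive log2 change, with a median of 1.11 beside 0.00 over all tested genes. Mki67, the proliferation marker Ki-67, was at 108, 64.5 and 364 CPM with R848 and 574, 951 and 512 CPM with IL-4+R848. The groups did not overlap, although R848 set 3 came near, and the log2 change was 1.72 ± 0.41 (edgeR adjusted p = 0.0485, with the block 0.113). At least 5 genes of the list were seen in 14 of 44 R848 cells and 66 of 113 IL-4+R848 cells, and after thinning in 14.0% of 43 and 41.4% of 111.

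**Figure D3:**
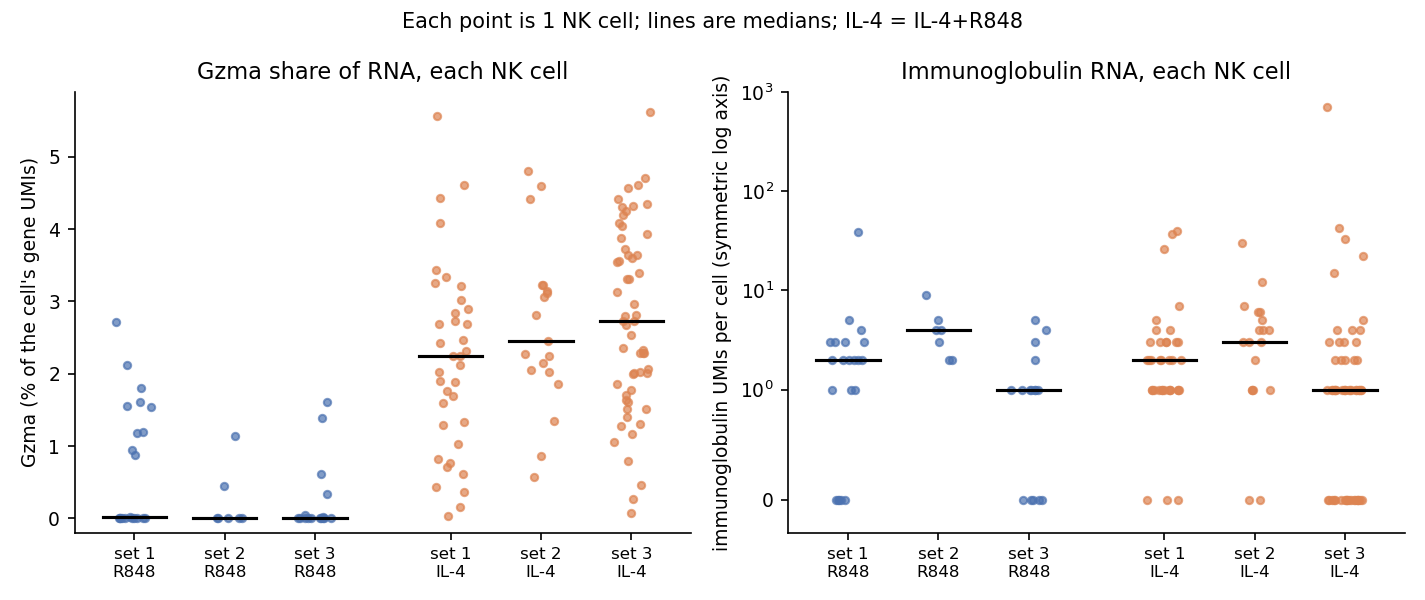
Each of the 157 NK cells, split by treatment and set, by the percentage of its UMIs from Gzma (left) and its immunoglobulin UMIs on a symmetric log axis (right), with medians as lines. R848 cells had a median Gzma share of 0% and IL-4+R848 cells of 2.42%, and 1 cell of IL-4+R848 set 3 held 700 immunoglobulin UMIs.

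R848 cells with and without a UMI of Gzma are set side by side here as a description over cells. Gzma is a gene of the rule, so cells without it had qualified by the other 5 markers. The 24 R848 cells without a UMI of Gzma had Xcl1 in 23, Ltb in 20, Kit in 14, Cd3d in 15 and Il7r in 10, and Gzmb in 0 and Klrg1 in 1. The 20 with Gzma had Xcl1 in 14, Ltb in 9, Kit in 3, Cd3d in 3 and Il7r in 0, with Gzmb in 15 and Klrg1 in 10. Ncr1 was in all of both, Eomes was in 19 of the 24 and 16 of the 20, and Itgax in 19 and 15. Median depth was 7378 UMIs in the cells without Gzma and 5587 in those with it. In the IL-4+R848 group every cell had Gzma, and Xcl1 was in 35, Ltb in 20, Kit in 7, Il7r in 12 and Gzmb in 69 of 113. This split was made on Gzma after the data were seen and carries no test. Whether the gene changes above arose within cells or from a different mix of cells left after selection was not tested. Cxcr6, a marker of type 1 innate lymphoid and tissue-resident cells, was in 14 IL-4+R848 cells and in 0 of 44 R848 cells, which allows a share of up to 6.82%, and Itga1 was in 5 cells in all.

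The antibody tags gave a readout of surface protein that the rule did not use. Above the 99th percentile of IgD B cells of the same set and treatment were 108 of 157 NK cells for CD11c and 68 of 157 for CD27. CD11c averaged 286, 197 and 411 UMIs per NK cell with R848 and 125, 104 and 94.8 with IL-4+R848, beside 3.42 to 5.38 on IgD B cells of the 6 samples. All IL-4+R848 values lay below all R848 values. The mean was 298 ± 107 with R848 and 108 ± 15.4 with IL-4+R848 (SD, n = 3 each), with an exact permutation p of 0.10, the smallest possible, and 0.30 after Benjamini-Hochberg adjustment over the 12 tags. Medians per cell were 247, 167 and 244 with R848 and 29, 77 and 57 with IL-4+R848. The direction was that of Itgax RNA, and across 113 IL-4+R848 cells the tag and the RNA had a Spearman's rho of 0.55, against 0.20 across 44 R848 cells, as a description over cells that share a library.

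**Figure D4:**
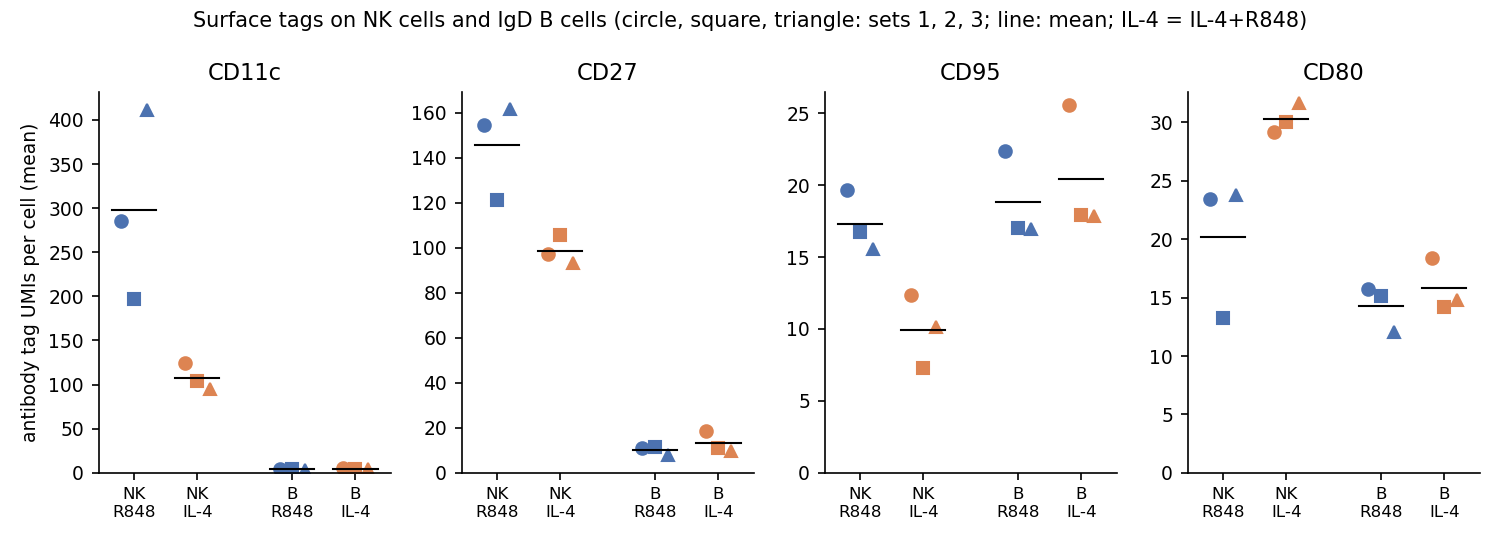
Mean UMIs per cell of 4 surface antibody tags on NK cells and IgD B cells (B), 1 point per set and treatment with the mean as a line. CD11c on NK cells was at 286, 197 and 411 with R848 and at 125, 104 and 94.8 with IL-4+R848.

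CD27 protein averaged 154, 121 and 162 UMIs per NK cell with R848 and 97.2, 106 and 93.3 with IL-4+R848, again without overlap (exact permutation p = 0.10, adjusted 0.30). CD95, the death receptor Fas, was at 19.7, 16.7 and 15.6 and then 12.4, 7.26 and 10.1, and CD80, a costimulatory ligand, at 23.5, 13.3 and 23.8 and then 29.2, 30.0 and 31.6. These were 4 of 12 tags without overlap (exact permutation p = 0.10 each, adjusted 0.30). As a share of all surface tag UMIs of the NK cells, CD11c was at 45.5% with R848 and 24.9% with IL-4+R848 and CD80 at 3.79% and 9.99%, while CD27 was at 27.0% and 27.4% and CD95 at 3.19% and 3.72%. The lower CD27 and CD95 values therefore turned with the scale, and that of CD11c did not. Shares depend on one another, so a lower CD11c share raises the others, that of CD80 included. Median UMIs of all surface tags per NK cell were 609, 342 and 524.5 with R848 and 222, 322 and 201 with IL-4+R848. By medians over cells the CD80 and CD95 values overlapped between treatments. On IgD B cells CD95 averaged 18.8 UMIs with R848 and 20.4 with IL-4+R848, and CD80 14.3 and 15.8. IgD protein on NK cells averaged 33.0 UMIs with R848, against 325 on IgD B cells.

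The change between treatments in NK cells was set against that in IgD B cells of the same libraries, in which IL-4 acts through the same receptor. The test of the difference, an interaction over 12 sums, called 112 of 2890 genes (3.88%), 61 with the change higher in NK cells (2.11%) and 51 with it lower (1.76%), and 27 of them were also called within NK cells. The count fell to 2 without set 1 and 26 without set 2, and stood at 122 without set 3. Of the 37 called genes that the naming rule chose, 35 lost their call without set 1, 22 without set 2 and 13 without set 3. Some of these genes had a larger log2 change in B cells than in NK cells. Nfil3 was at 4.59, 4.89 and 3.36 CPM in R848 B cells and 75.0, 101 and 86.4 CPM in IL-4+R848 B cells, and the log2 change in NK cells was 3.12 ± 0.62 lower (edgeR adjusted p = 0.0150). Its level in NK cells of R848 mice was already above that of R848 B cells in each set.

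Tmem123, a membrane mucin-like protein, was at 191, 179.7 and 206 CPM in R848 B cells and 790.2, 917 and 916 CPM in IL-4+R848 B cells, and at 131, 161 and 131 CPM and then 50.4, 44.2 and 117 CPM in NK cells. The difference of the changes was -2.92 ± 0.42 (edgeR adjusted p = 0.00291). Serpinb6b, an intracellular protease inhibitor, went from 11.6, 14.3 and 11.9 CPM in B cells to 61.4, 70.4 and 65.6 CPM and overlapped between treatments in NK cells (-2.05 ± 0.33, edgeR adjusted p = 0.00537). Hcst, encoding the NKG2D adaptor DAP10, differed by -1.23 ± 0.17 (edgeR adjusted p = 0.00207). Thy1, a surface glycoprotein of T and NK cells, differed by -4.10 ± 1.02 (edgeR adjusted p = 0.0370), but no B cell sum was above 1.15 CPM and its NK sums overlapped.

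Other genes were lower in IL-4+R848 NK cells with smaller changes in B cells. Ltb differed by -2.44 ± 0.33 (B cells 764, 700.2 and 733 CPM, then 692, 651 and 606 CPM), Id3 by -3.14 ± 0.48 and Hopx by -2.65 ± 0.44, with edgeR adjusted p of 0.00207, 0.00360 and 0.00545. Slamf7 (-1.51) and Il2rg (-0.68) were also lower in NK cells (edgeR adjusted p = 0.00360 and 0.0235). B cell levels of Id3 were 89.4, 89.2 and 93.3 CPM with R848 and 75.3, 78.7 and 81.7 CPM with IL-4+R848.

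In the opposite direction stood Tent5c (3.18 ± 0.53) and Snap47 (2.78 ± 0.38), whose log2 changes in B cells were -0.45 and -0.04 (edgeR adjusted p = 0.00545 and 0.00207). Il21r (1.70 ± 0.33) and the survival gene Bcl2 (1.63 ± 0.41) were higher too (edgeR adjusted p = 0.0124 and 0.0370). Bcl2 was at 54.0, 129 and 28.0 CPM in R848 NK cells and 132, 149 and 114 CPM in IL-4+R848 NK cells, which overlap, while B cells went from 74.8, 79.1 and 68.7 CPM to 58.8, 63.5 and 53.8 CPM. Cd244a, the receptor 2B4, differed by 1.85 ± 0.38 (edgeR adjusted p = 0.0194) with B cell levels from 3.61 to 6.99 CPM with R848 and from 1.40 to 1.52 CPM with IL-4+R848, and with 218 ± 11.2 and 213 ± 32.6 CPM (SD, n = 3 each) in NK cells.

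Of 26 tested DNA replication and mitosis genes, 11 had a change higher in NK cells, beside 2.11% of all tested genes, and none lower. The list medians were 1.11 in NK cells and -0.52 in B cells. Mki67 went from 81.2, 106 and 80.9 CPM to 61.4, 63.6 and 65.1 CPM in B cells, so the changes differed by 2.17 ± 0.42 (edgeR adjusted p = 0.0125). Rrm1, a subunit of ribonucleotide reductase, differed by 2.59, the mitotic kinase gene Aurkb by 2.40, the kinesin gene Cenpe by 2.23 and Cdc20, outside the list, by 2.21 (edgeR adjusted p = 0.0323, 0.0370, 0.0276 and 0.00918). IgD B cells were chosen by a UMI of Ighd, so dividing B cells without one are not among them.

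**Figure D5:**
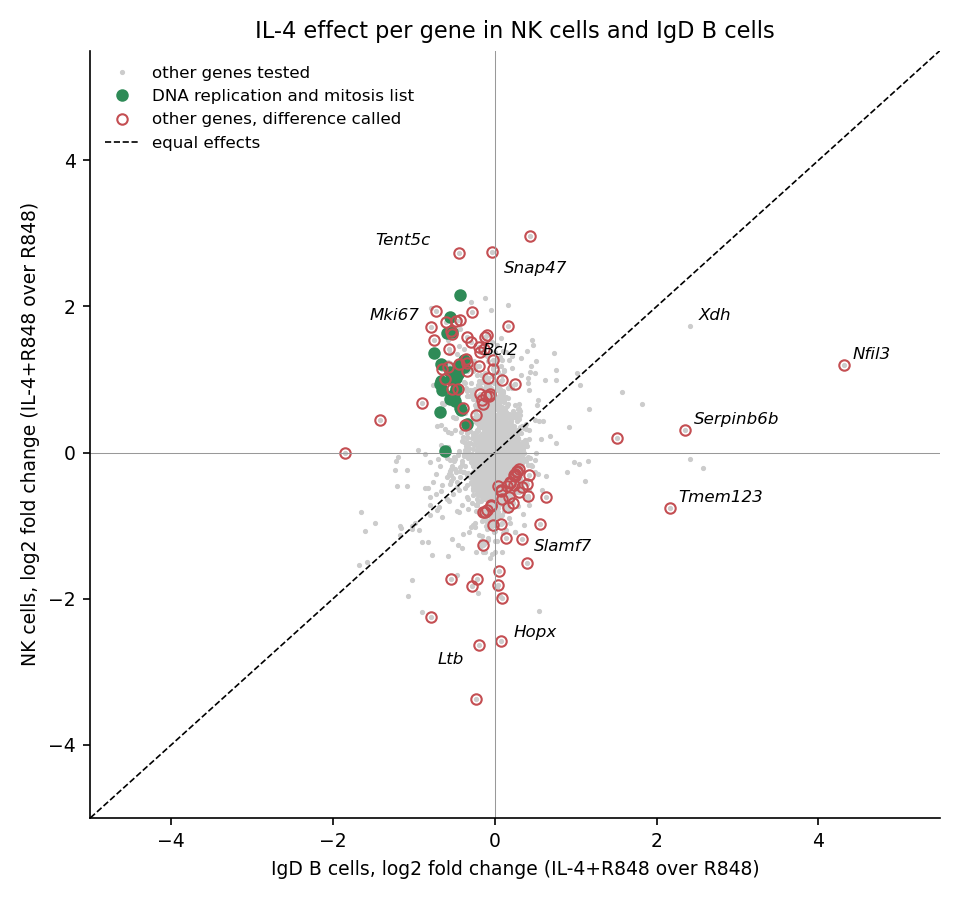
Log2 change of IL-4+R848 against R848 in IgD B cells (horizontal) and NK cells (vertical) for 2812 tested genes with at least 100 UMIs in the IgD B sums. The 109 of them called for the difference are ringed or, in the DNA replication and mitosis list, within the filled points, which show all its members, and the dashed line marks equal effects, with Nfil3 and Tmem123 far to the right and Snap47 and Tent5c at the top.

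NK cells make no antibody, yet immunoglobulin UMIs were found in them, and the source of these UMIs was not tested. Over 13 genes, the heavy and light chain constant genes and Jchain, the 157 NK cells held 1260 UMIs. Of these 700 were in 1 IL-4+R848 cell of set 3 with 353 UMIs of Ighg2b and 214 of Igkc, and 255 were in the 8 B cell doublet candidates. No such UMI was found in 34 cells, 107 had 1 to 5 and 9 had more than 20. Medians were 2, 4 and 1 UMIs per R848 cell and 2, 3 and 1 per IL-4+R848 cell in sets 1, 2 and 3, so the sets differed more than the treatments.

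Per 10000 UMIs the NK cells had 4.86 ± 3.13 with R848 and 9.27 ± 7.39 with IL-4+R848 (SD, n = 3 each; exact permutation p = 0.50). Without the doublet candidates and 2 plasma cell candidates the values were 4.08 ± 3.39 and 2.37 ± 0.898, the opposite order. IgD B cells had 94.8 ± 12.3 and 85.6 ± 6.78. A UMI of Ighm was in 51.0% of NK cells and 97.5% of IgD B cells, and one of Igkc in 35.7% and 94.4%. The shares of some other genes lay closer together: Jchain was in 21.0% of NK cells and 22.1% of IgD B cells, Ighg2c in 8.28% and 10.9%, and Ighg1 in 7.64% and 5.88%. Ighg2b (2.55% and 19.9%), Ighg3 (3.18% and 7.85%) and Igha (1.27% and 5.19%) were seen in fewer NK cells than IgD B cells. NK cells had a median of 7170 UMIs, and the IgD B sums had medians from 4298.5 to 7464.5. Reads of near-identical IgG constant genes could be split between them by the counting, which makes single IgG values uncertain. In the edgeR fit none of 4 tested immunoglobulin or 8 tested B cell genes passed between treatments, beside 1.97% of all tested genes. All 8 B cell genes had a positive log2 change with a median of 1.12. Summed over the B cell list, levels were 2609, 1031 and 933 CPM with R848 and 5522, 569.7 and 3898 CPM with IL-4+R848, and the groups overlapped. The share of this RNA in the gene changes above was tested only by leaving the candidates out, which raised the number of called genes to 84.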

How the data were processed

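Spleen B cell preparations were sequenced as 3 libraries of single-cell 5' RNA with antibody tags. Values in the deposited matrices are raw UMI counts, unscaled. Per the file headers, Cell Ranger 6.0.1 produced them. The build mm10 is named, with Seurat 4.1.3, in the submitters' processing notes. The treatment of a cell was read from the hashtag names in the deposited features. Gene symbols are those of the files, positions were matched by gene ID to GENCODE M21 on GRCm38, and promoters are RefSeq's.

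NK cells were chosen as the report states, and the members and lists were chosen with earlier results of these data known. Doublets of both hashtags were removed, and no caller was run for doublets of 1 treatment. Counts were summed over NK cells, or IgD B cells, per set and treatment. These 6 (or 12) sums were fitted with edgeR 4.0.16 (TMM, filterByExpr, quasi-likelihood test, Benjamini-Hochberg adjustment over all genes tested) in R 4.3.3. Genes of the NK rule were left out of the calls. DESeq2 1.42.0, the set as a block, other filters and other cell rules were alternatives. A set number marks a shared library in the titles, so the numbers pair the sums, and the deviations of same-set sums had correlations of 0.0150, -0.0638 and -0.108 over 848 genes. The scripts were tested on simulated counts. Thinning drew 2000 UMIs per cell without replacement. Shares and tags were compared by exact two-sided permutation tests in SciPy 1.17.1.

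Genes are named by a rule: up to 3 called members per list with the largest change in the same direction in all sets, the 10 largest rises and 10 largest falls outside the lists, and a fixed set of NK genes. Some genes that count in the lists are not reported here. Summed depth was 36440 to 490349 gene UMIs per NK sum.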

Additional observations from a re-analysis of the deposited data

Results flagged for a closer look

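The change between treatments in several named genes differed between NK cells and IgD B cells by the interaction test of edgeR (adjusted p under 0.05). Each value is the log2 change in NK cells minus that in IgD B cells. It was lower in NK cells for Thy1 (-4.10), Id3 (-3.14), Nfil3 (-3.12), Tmem123 (-2.92), Hopx (-2.65), Ltb (-2.44), Serpinb6b (-2.05), Slamf7 (-1.51), Hcst (-1.23) and Il2rg (-0.68). It was higher in NK cells for Tent5c (3.18), Snap47 (2.78), Rrm1 (2.59), Aurkb (2.40), Cenpe (2.23), Cdc20 (2.21), Mki67 (2.17), Cd244a (1.85), Il21r (1.70) and Bcl2 (1.63).

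The 157 NK cells are far fewer than the 19281 IgD B cells. The fit of the difference estimated the spread of each gene from the NK and IgD B sums together. The standard error of a difference is therefore not that of the small NK sums alone. The 6 NK sums hold 36440 to 490349 gene UMIs.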

How the results depend on the processing

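The count of 57 genes changed in NK cells was 34 with the set as a block, where 30 of the 57 were called, 227 with no filter on low counts, 2 without cells carrying Cd3d, Cd3g or Trac, and 17 to 55 when a set was left out. It was 48 with DESeq2 and 53 with its size factors in edgeR. Besides the calls reported as lost with the block, it changed no call among the treatment genes named in the text. The 112 differences from IgD B cells were 302 with DESeq2, 67 with at least 4 of 6 markers, 22 without cells carrying Cd3d, Cd3g or Trac, 225 without B cell doublet candidates, 226 without B or plasma cell candidates, 126 with the block and 2 to 122 when a set was left out. In the setting without Cd3d, Cd3g and Trac cells, 1304 genes were tested and 19 R848 and 64 IL-4+R848 cells remained. Why fewer genes were called there was not tested. Among differences named by the rule, the block ended the calls of Paqr4 (adjusted p 0.0521), Dgka (0.0596) and Entpd1 (0.0505) in edgeR.

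The NK share differed by 0.543 points in the main rule, by 0.334 to 0.576 under 9 other cell rules, and by 0.359 to 0.669 when a set was left out. Tags without overlap numbered 4, then 2 by medians over cells, 1 without cells carrying Cd3d, Cd3g or Trac, and 4 to 8 when a set was left out. The ratio of CD27 turned to 1.02 as a share of tags and 1.01 without the Cd3d, Cd3g and Trac cells, and that of CD95 to 1.17 as a share. The late NK list moved from -0.57 to -0.81 on the log2 scale with at least 4 of 6 markers. The difference in immunoglobulin UMIs, 4.41 per 10000 UMIs, turned to -1.71 without B or plasma cell candidates and to -0.33 by median UMIs, and ran from -1.42 to 8.36 when a set was left out.

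Signs also turned for genes that were not called. Leaving out a set gave -0.663 to 0.0127 for Ccl5, -0.153 to 0.752 for Stat6, -0.618 to 0.0437 for Socs1, -0.163 to 0.530 for Irf7 and -0.199 to 1.24 for Jchain. Il12rb2 was at -0.0341 with at least 4 of 6 markers, Irf7 at -0.259 with a 10-fold tag rule, Igkc at -0.0558 without B or plasma cell candidates, Cd79a at -0.190 without the Cd3d, Cd3g and Trac cells, and Cd74 at -0.634 without B cell candidates and -0.750 without B or plasma cell candidates. The rules that leave out B or plasma cell candidates or Gzma as a marker, the median of immunoglobulin UMIs and, for the tags alone, the rule on Cd3d, Cd3g and Trac were added after seeing the data. Depth limits these results most in R848 set 2, with 7 NK cells.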

Other observations

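The CD11c and CD27 tags varied among NK cells of one treatment. Across 44 R848 cells the CD27 tag and the percentage of Gzma had a Spearman's rho of -0.55, and across 113 IL-4+R848 cells one of 0.02, as a description over cells that share libraries. The CD11c and CD27 tags had a rho of 0.41 in both groups. The CD27 tag and Cd27 RNA had a rho of 0.07 in R848 cells and 0.08 in IL-4+R848 cells.

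Gata3, a transcription factor shared by several innate lymphocytes, had a UMI in 52 of 157 NK cells. None of 12 tested ribosome biogenesis genes and none of 8 tested survival genes passed the edgeR test between treatments, beside 1.97% of all tested genes. Cell barcodes shared between sets numbered 230, 289 and 219 for the pairs of sets, and no barcode was an NK cell in both sets of a pair.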
